A study of Mus musculus with 20 samples.

Results

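Mast cell genes were followed across 20 expression arrays of implanted LLC-1 tumors, an established Lewis lung carcinoma line grown in C57Bl/6 host mice. The 8 genes, of 19938 measured, were the granule proteases Cpa3, Mcpt4, Cma1 and Tpsb2, the surface receptor genes Fcer1a, Ms4a2 and Kit, and Hdc, the enzyme that makes histamine. They were chosen from known mast cell genes after their values had been seen, because Cpa3 was lower with p19Arf while Hdc moved the other way, with all 4 groups in view. Their differences in any comparison that adds p19Arf are therefore a description and carry no test. All 8 were measured, each by 1 probe set, and no filter on low values was applied.

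Every tumor received adenoviral vectors by direct injection, 5 times at 48 h intervals, in 25 µl each, and the stated load of virus was 8 as a log10 value. The control vector carried eGFP, the second carried IFNbeta, the third p19Arf, and the fourth group received IFNbeta and p19Arf together, with 5 arrays per group. The eGFP tumors are thus vector-treated tumors and not untreated ones. The promoter of the vectors, the site of implantation, the age of the mice and any pooling of animals are not stated in the sources used here. The arrays of a group carry numbers, with no word on whether each is a separate animal. The p-values therefore set differences against the spread between these arrays, which may not be the spread between animals.

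Mast cells arise from bone marrow progenitors and mature in tissues, where survival depends on the receptor tyrosine kinase Kit and its ligand, stem cell factor. Their granules hold histamine and proteases bound to serglycin, and cross-linking of IgE on the high-affinity receptor, of which Fcer1a encodes the IgE-binding alpha chain and Ms4a2 the signalling beta chain, releases them. Several of these genes are also active elsewhere: Fcer1a, Ms4a2 and Hdc in basophils, Hdc in neutrophils and macrophages when they are stimulated, and Kit in melanocytes, stem cells and some endothelial cells. In bulk tumor RNA a lower level can mean fewer cells of a type or less RNA per cell, and these cannot be told apart.

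The promoters of Cpa3, Mcpt4, Fcer1a and Kit are shown with that of Hdc. Among the 8 genes, Mcpt4, Kit and Fcer1a varied most with Cpa3 over the arrays, and Hdc had r = -0.469 with Cpa3. Kit had 2 windows with nearby starts, of which 1 is printed. Each window runs from 250 bases before to 50 bases after the gene start in RefSeq, assembly GRCm38.p6, 5′ to 3′ along the gene. Capitals mark matches on either strand to GATA motifs with the letters AGATAA or AGATAG and TGATAA or TGATAG, the kind of site read by the mast cell factors GATA1 and GATA2, and to E-boxes with the letters CACGTG or CATGTG, the kind read by MITF.
Cpa3 promoter, chr3:20242132-20242431, minus strand: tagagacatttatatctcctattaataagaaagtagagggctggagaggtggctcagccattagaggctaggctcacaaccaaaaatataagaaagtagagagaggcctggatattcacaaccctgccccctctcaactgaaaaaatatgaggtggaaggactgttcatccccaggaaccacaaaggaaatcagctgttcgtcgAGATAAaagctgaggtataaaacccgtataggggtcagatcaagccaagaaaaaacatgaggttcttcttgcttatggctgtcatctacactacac
Mcpt4 promoter, chr14:56062261-56062560, minus strand: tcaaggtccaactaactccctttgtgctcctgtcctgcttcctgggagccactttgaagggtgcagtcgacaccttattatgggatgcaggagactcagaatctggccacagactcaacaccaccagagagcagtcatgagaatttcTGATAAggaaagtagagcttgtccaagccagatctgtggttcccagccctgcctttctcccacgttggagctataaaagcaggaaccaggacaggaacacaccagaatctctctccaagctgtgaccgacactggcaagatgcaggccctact
Fcer1a promoter, chr1:173227180-173227479, minus strand: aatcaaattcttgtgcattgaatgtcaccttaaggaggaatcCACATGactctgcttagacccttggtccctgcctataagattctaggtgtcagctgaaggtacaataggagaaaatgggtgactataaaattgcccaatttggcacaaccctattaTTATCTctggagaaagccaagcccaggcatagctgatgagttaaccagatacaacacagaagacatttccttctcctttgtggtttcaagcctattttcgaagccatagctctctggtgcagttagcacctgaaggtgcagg
Kit promoter, chr5:75574737-75575036, plus strand: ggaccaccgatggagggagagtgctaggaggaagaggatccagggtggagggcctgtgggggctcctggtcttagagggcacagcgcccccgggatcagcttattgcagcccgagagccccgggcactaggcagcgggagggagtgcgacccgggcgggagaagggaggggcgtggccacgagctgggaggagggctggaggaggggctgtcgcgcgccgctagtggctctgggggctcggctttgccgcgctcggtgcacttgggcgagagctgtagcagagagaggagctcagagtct
Hdc promoter, chr2:126618629-126618928, minus strand: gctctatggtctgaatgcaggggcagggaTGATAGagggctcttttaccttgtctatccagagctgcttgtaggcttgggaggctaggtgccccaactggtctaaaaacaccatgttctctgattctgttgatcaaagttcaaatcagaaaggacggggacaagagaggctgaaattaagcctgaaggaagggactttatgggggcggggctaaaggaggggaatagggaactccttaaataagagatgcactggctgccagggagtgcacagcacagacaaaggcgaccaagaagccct
Counted from the gene start, the GATA match of Cpa3 began at position -46, that of Mcpt4 at -103 and that of Fcer1a at -92, and Fcer1a also held an E-box at -208. The Hdc window held 1 GATA match too, at -221, and the Kit windows held no match to either motif. Windows were listed for 7 of the 8 genes, Tpsb2 being the exception. A GATA match was present in 6 of these 7 genes, all but Kit with its 2 windows. Counted by window and not by gene, 29.8% of the 32851 promoter windows listed held such a match and 20.4% held an E-box. No 2 matches overlapped. The matches are a description of these letters and were not tested for binding.

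Arrays of a group correlated at 0.951 to 0.994 with each other, and no pair held the same values. The array of IFNbeta replicate 3 stood apart in skin epidermis markers, whose mean log2 level over 9 genes was 8.88 there, while the rest of the IFNbeta arrays lay between 6.30 and 6.47 and the other groups between 6.36 and 7.15. The spread of an array, meaning the SD over all its probe sets, averaged 2.11 in the eGFP and IFNbeta groups and 2.06 in both groups with p19Arf. The differences of the combination from IFNbeta in Cpa3, Fcer1a, Mcpt4 and Hdc are also given without IFNbeta replicate 3. So is the difference of IFNbeta from eGFP in Cpa3. The p19Arf averages, the interaction estimates and the list medians include that array.

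Cpa3 encodes carboxypeptidase A3, the exopeptidase of mast cell granules. Its log2 values were 8.43, 9.47, 8.81, 8.99 and 9.06 on the eGFP arrays and 9.49, 8.40, 7.80, 8.64 and 8.95 on the IFNbeta arrays. With p19Arf they were 7.98, 7.42, 8.08, 7.52 and 8.40, and with both vectors 8.55, 8.12, 7.35, 7.86 and 8.01. Each p19Arf array lay below each eGFP array, although by a gap of only 8.40 against 8.43 at the nearest point. The arrays of the combination overlapped those of eGFP and of IFNbeta, and the lowest IFNbeta array, replicate 3, lay among the p19Arf values.

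Cpa3 averaged 8.95 ± 0.38 with eGFP, 8.66 ± 0.63 with IFNbeta, 7.88 ± 0.41 with p19Arf and 7.98 ± 0.44 with both vectors (SD, n = 5 each). In this order of levels the p19Arf and combination groups differed by 0.10 and the IFNbeta and eGFP groups by 0.29, both within the pooled SD of the groups compared, while the step of 0.68 between the combination and IFNbeta exceeded it. The difference of p19Arf from eGFP, one of the values that chose the genes, was -1.07 on the log2 scale (SE 0.26), a level 2.10-fold lower. Cpa3 was the only one of the 8 genes whose groups did not overlap in that comparison, where 0.441% of all genes lay wholly lower and 0.251% wholly higher. Nothing is read from that count, since the same comparison chose the genes.

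Mcpt4, a chymase of connective tissue mast cells, had log2 values of 8.12, 8.53, 8.07, 8.17 and 8.50 in eGFP and 8.74, 8.17, 8.31, 8.11 and 8.33 in IFNbeta. They were 7.55, 7.80, 7.87, 8.04 and 8.35 in p19Arf and 8.34, 7.78, 7.35, 7.79 and 7.90 in the combination. Of the 10 arrays with p19Arf, p19Arf replicate 5 and replicate 1 of the combination lay among the values without it, and the others lay below each eGFP and IFNbeta array. Mcpt4 averaged 8.28 ± 0.22 with eGFP, 8.33 ± 0.25 with IFNbeta, 7.92 ± 0.30 with p19Arf and 7.83 ± 0.35 with both vectors (SD, n = 5 each). The p19Arf mean was thus 0.36 below eGFP, a step larger than the pooled SD of 0.26, whereas eGFP and IFNbeta, at the top of the order, differed by 0.05.

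The other chymase, Cma1, and the tryptase Tpsb2 showed no such step. Cma1 ran from 6.71 to 7.32 over all arrays, with means of 7.13 ± 0.12, 7.07 ± 0.15, 7.05 ± 0.20 and 7.08 ± 0.23 in eGFP, IFNbeta, p19Arf and the combination (SD, n = 5 each). Tpsb2 ran from 8.07 to 8.76, with means of 8.46 ± 0.22, 8.40 ± 0.18, 8.45 ± 0.22 and 8.32 ± 0.19. No neighbouring groups of either gene differed by more than their pooled SD. The difference of p19Arf from eGFP was -0.08 in Cma1 (95% interval -0.32 to 0.15) and -0.01 in Tpsb2 (95% interval -0.27 to 0.25), the latter turning to 0.01 under quantile normalization. Proteases of these families are similar in sequence, and probes can be shared between relatives, so values of single chymases and tryptases are uncertain to that extent.

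Among the receptor genes, Fcer1a had log2 values of 6.14, 6.49, 6.32, 6.38 and 6.55 in eGFP, 6.62, 6.36, 6.05, 6.25 and 6.50 in IFNbeta, 6.35, 5.92, 6.13, 6.51 and 6.23 in p19Arf, and 6.30, 5.96, 5.68, 6.06 and 5.78 in the combination. The combination was lowest, and 3 of its arrays lay below each array of the eGFP and IFNbeta groups. Its mean of 5.96 ± 0.24 stood 0.27 below p19Arf at 6.23 ± 0.22, more than the pooled SD of 0.23, while IFNbeta at 6.36 ± 0.22 and eGFP at 6.38 ± 0.16 differed by 0.02 (SD, n = 5 each). Ms4a2 ranged from 4.71 to 5.17 over all arrays, with means of 4.94, 5.05, 4.96 and 4.90 in eGFP, IFNbeta, p19Arf and the combination and no step between neighbours larger than the pooled SD. Its difference of p19Arf from eGFP was 0.03 and changed sign under quantile normalization (-0.04) and median centring (-0.003). The mean of its probe set was at the 5.13 percentile of all genes, that of Fcer1a at the 18.2 percentile, and no detection call was used here, so whether their RNA was above background is unknown.

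Kit had log2 values of 7.95, 8.39, 7.94, 8.11 and 8.04 in eGFP, 8.14, 7.93, 7.92, 8.13 and 8.13 in IFNbeta, 7.98, 7.83, 7.91, 7.85 and 7.85 in p19Arf, and 7.92, 8.02, 7.90, 7.95 and 7.99 in the combination. The p19Arf arrays were tightly grouped, with 4 of 5 below each eGFP array. The means were 8.09 ± 0.185, 8.05 ± 0.12, 7.88 ± 0.06 and 7.96 ± 0.05 in these groups (SD, n = 5 each). In the order of levels p19Arf lay 0.07 below the combination and the combination 0.09 below IFNbeta, each just over the pooled SD, while IFNbeta and eGFP differed by 0.04. The p19Arf mean was 0.20 below eGFP, and without eGFP replicate 2, the highest array, the difference was -0.13. Kit also followed endothelial markers, with r = 0.781 against the mean of 10 such genes over the 20 arrays. Of these markers 9 of 10 had a lower mean in p19Arf than in eGFP, where 45.6% of all genes did. Their list means were 8.16 to 8.49 on the p19Arf arrays, 8.38 to 8.76 in eGFP, 8.54 to 8.68 in IFNbeta and 8.39 to 8.61 in the combination. The part of these markers in the Kit values was not tested.

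Hdc, histidine decarboxylase, stood on the other side of the control. Its log2 values were 9.59, 9.11, 8.90, 9.08 and 8.63 in eGFP, 9.0003, 9.07, 9.47, 9.27 and 9.44 in IFNbeta, 9.28, 9.92, 9.19, 9.31 and 8.81 in p19Arf, and 9.96, 9.40, 9.25, 10.52 and 9.51 in the combination. Replicates 4 and 1 of the combination were the highest of all 20 arrays, yet the 4 groups overlapped. The means were, from low to high, eGFP, 9.06 ± 0.35, IFNbeta, 9.25 ± 0.21, p19Arf, 9.30 ± 0.40, and the combination, 9.73 ± 0.52 (SD, n = 5 each), with no step larger than the pooled SD of its neighbours. The difference of p19Arf from eGFP was 0.24 (SE 0.22), or 0.09 if p19Arf replicate 2 is left out. With both vectors the difference from eGFP was 0.67 (SE 0.22).

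**Figure D1:**
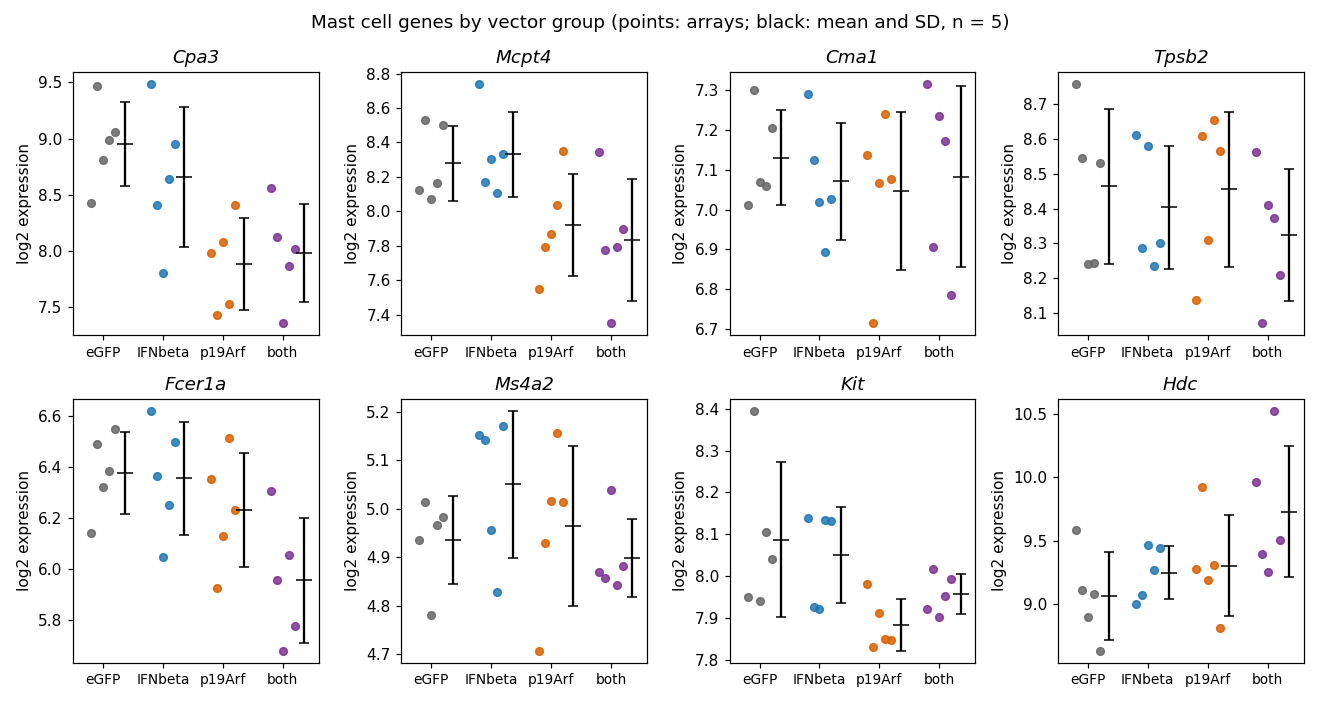
Log2 expression of the 8 mast cell genes on each array (points, replicates 1 to 5 from left to right) in the eGFP, IFNbeta and p19Arf groups and with both vectors, with the group mean and SD in black (n = 5). Cpa3 has means of 7.88 and 7.98 in the groups with p19Arf against 8.95 in eGFP, Hdc is highest with both vectors at 9.73, and each axis has its own range.

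The combination was set against IFNbeta to describe the p19Arf difference on top of IFNbeta. Cpa3 differed by -0.68 on the log2 scale (95% interval -1.22 to -0.14), a level 1.60-fold lower, Mcpt4 by -0.50 (-0.84 to -0.16) and Fcer1a by -0.40 (-0.67 to -0.13). Hdc differed by 0.48 (0.03 to 0.93). Kit differed by -0.09 (-0.27 to 0.09), Ms4a2 by -0.15 (-0.34 to 0.04), Tpsb2 by -0.08 (-0.34 to 0.18) and Cma1 by 0.01 (-0.22 to 0.25). The Cma1 value turned negative under quantile normalization (-0.05) and median centring (-0.03). These intervals give the precision of the differences and are not read as tests.

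These arrays were among those that chose the genes, so no p is given for them. The arrays of the 2 groups overlapped in each of the 8 genes, whereas 0.782% of all genes lay wholly lower and 1.3% wholly higher, and nothing is read from that count. The median difference over the 8 genes was -0.12, beside 0.05 over all genes.

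Without IFNbeta replicate 3, the array with high epidermal markers, the difference of the combination from IFNbeta was -0.89 in Cpa3, -0.48 in Fcer1a, -0.51 in Mcpt4 and 0.53 in Hdc. In a fit that also held the array spread, the Cpa3 difference was -0.35 and that of Hdc 0.30, while that of Mcpt4 was -0.51. Hdc was at 0.28 without replicate 4 of the combination, its highest array.

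Over both backgrounds, the mean of the 10 arrays with p19Arf against the mean of the 10 without it, 7 of the 8 genes were lower and Hdc was higher, as a description. Of all genes 42.2% were lower, and nothing is read from the count, since these arrays chose the genes. Cpa3 differed by -0.87 (SE 0.18), Mcpt4 by -0.43 (SE 0.12), Fcer1a by -0.27 (SE 0.09), Kit by -0.15 (SE 0.06) and Hdc by 0.36 (SE 0.15). The values for Cma1, Tpsb2 and Ms4a2 lay between -0.06 and -0.04. The median over the 8 genes was -0.105, beside 0.04 over all genes. With array spread in the fit, Cpa3 differed by -0.57, Kit by -0.09 and Hdc by 0.20, and Mcpt4 by -0.44.

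IFNbeta alone was compared with eGFP to ask whether these genes moved with the cytokine vector. The differences ran from -0.29 in Cpa3 (95% interval -0.83 to 0.25) to 0.19 in Hdc (-0.26 to 0.63), with 0 of 8 past an unadjusted p of 0.05 in limma, where 2.79% of all genes were, 1.34% higher and 1.45% lower, and adjusted p-values of 1. The Cpa3 difference was -0.08 without IFNbeta replicate 3. In tumors that also received p19Arf, the differences with IFNbeta were -0.27 in Fcer1a (-0.54 to -0.01) and 0.42 in Hdc (-0.02 to 0.87). Fcer1a was the 1 gene of 8 at an unadjusted p under 0.05, beside 3.07% of all genes, 1.24% lower and 1.83% higher, and its adjusted p was 0.998 by limma. The intervals of the other genes included 0, and for Cpa3 they reached from -0.44 to 0.64.

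The interaction, meaning the change of the p19Arf difference with IFNbeta, is given as a description with no p for the 8 genes. It is built from the p19Arf differences that chose them. Over all genes, 1.3% had an unadjusted p under 0.05 in limma, 0.813% higher and 0.492% lower, and 0% passed after adjustment. The estimate for Cpa3 was 0.39 (95% interval -0.37 to 1.16), for Fcer1a -0.25 (-0.63 to 0.13) and for Hdc 0.24 (-0.40 to 0.87). These intervals are wide beside the differences themselves and do not show that the p19Arf differences were alike with and without IFNbeta.

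**Figure D2:**
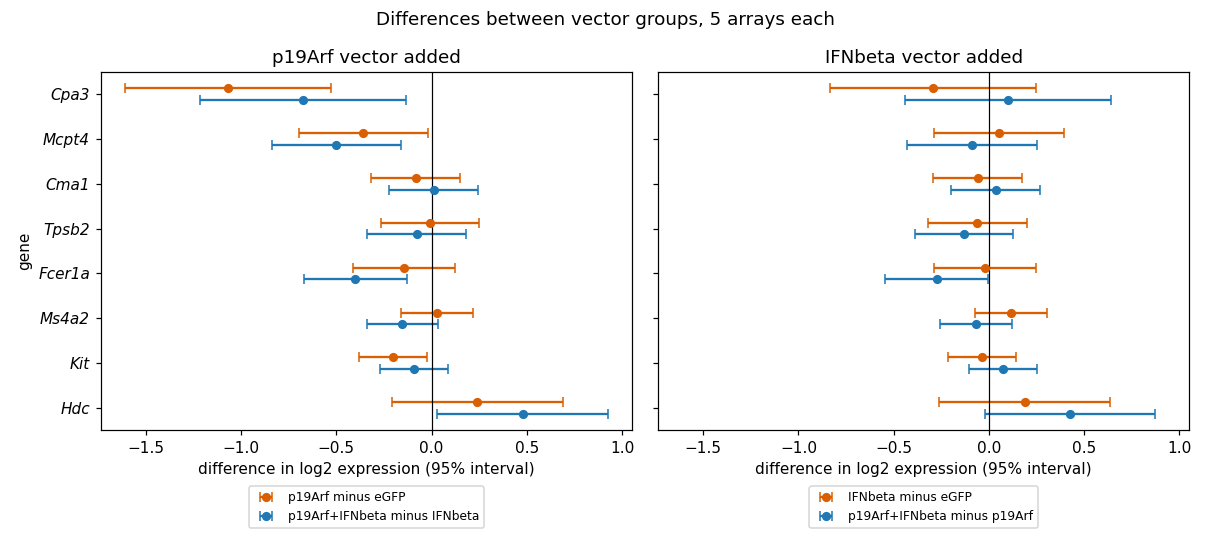
Differences in log2 expression with 95% intervals for the 8 genes, on the left for adding p19Arf (p19Arf minus eGFP, and the combination minus IFNbeta) and on the right for adding IFNbeta (IFNbeta minus eGFP, and the combination minus p19Arf), 5 arrays per group. On the left Cpa3 lies at -1.07 and -0.68 and Hdc at 0.24 and 0.48, and on the right the interval of Fcer1a in the combination minus p19Arf, -0.54 to -0.01, is the only one that excludes 0.

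The 8 genes did not vary as 1 block across the tumors. Cpa3 varied with Mcpt4 (Pearson r = 0.791, Spearman rho = 0.756), Kit (0.763 and 0.726) and Fcer1a (0.718 and 0.693) over the 20 arrays, and Mcpt4 with Fcer1a (0.717 and 0.648). These r-values were 0.677, 0.615, 0.691 and 0.593 for deviations from the group means, and 0.687, 0.67, 0.677 and 0.622 without the 2 arrays farthest from the median of the second gene. Kit varied less with Mcpt4 (r = 0.47, and 0.217 for deviations) and with Fcer1a (0.445 and 0.358). Pairs with other genes reached similar values, such as Cma1 with Fcer1a (0.536 and 0.681) and Mcpt4 with Tpsb2 (0.45 and 0.496). Tpsb2 stood apart from Cpa3, with r = 0.0164. Hdc was below 0 against Cpa3, with r = -0.469 and rho = -0.511, and -0.288 for deviations from the group means. They come from the 28 pairs of these genes. The genes of an array share its tumor, cell makeup and spread, and no p is attached.

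**Figure D3:**
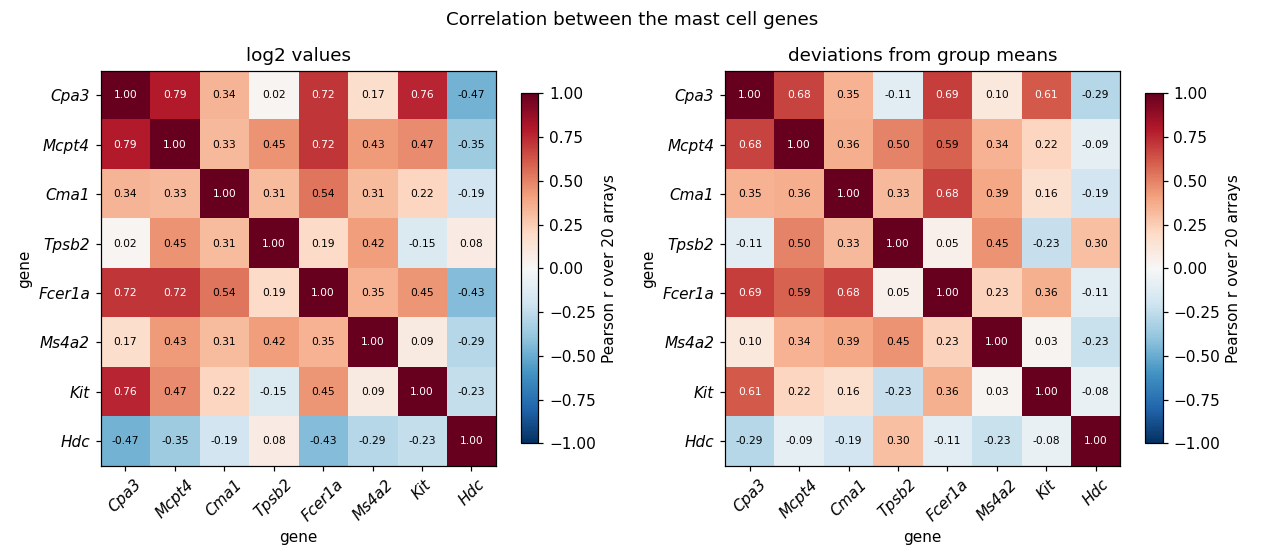
Pearson r between each pair of the 8 genes over 20 arrays, on the left for log2 values and on the right for deviations from the group means. Pairs among Cpa3, Mcpt4, Fcer1a and Kit have r from 0.445 to 0.791 on the left and from 0.217 to 0.691 on the right. Cma1 with Fcer1a (0.536 and 0.681) and Mcpt4 with Tpsb2 (0.45 and 0.496) lie within these ranges. Hdc has r from -0.469 to 0.081 with the others on the left and at most 0.298, with Tpsb2, on the right.

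The 5 genes most like Hdc lay outside the mast cell lists used here. Among 9709 genes above the median level, Il1b, the inflammatory cytokine interleukin-1 beta, had the highest r, 0.952 (rho = 0.925, 0.915 without the 2 arrays farthest from the median of Il1b, and 0.952 for deviations from the group means). Hcar2, a receptor for hydroxycarboxylic acids on myeloid cells, followed at 0.917, Il1f9, an interleukin-1 family cytokine also called IL-36 gamma, at 0.911, the kinase gene Pim1 at 0.905 and Nfkbid, a nuclear NF-kB inhibitor, at 0.896. Il1b was at 10.98, 10.50, 10.09, 10.38 and 9.95 on the eGFP arrays, 10.46, 10.69, 11.01, 10.79 and 10.86 on the IFNbeta arrays, 10.66, 11.12, 10.54, 10.48 and 10.18 on the p19Arf arrays and 11.91, 10.95, 10.83, 12.22 and 10.83 on those of the combination. The arrays highest in Hdc, replicates 4 and 1 of the combination, were also highest in Il1b. These genes were picked for a high r among many, so their r-values are high by choice. Genes of the mast cell lists that other leukocytes share came close: the kinase gene Syk had r = 0.892 with Hdc, the chemokine genes Ccl3 and Ccl4 had 0.844 and 0.823, and Vegfa and Vav1 had 0.757 and 0.748. These 5 were chosen after their values were seen.

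Markers of neutrophils differed among themselves in r with Hdc, from -0.581 in Mmp9 to 0.853 in S100a9. Of 16 measured, 5 had r over 0.5 with Hdc, S100a9, Csf3r at 0.787, Cxcr2 at 0.528, Lcn2 at 0.526 and S100a8 at 0.507. The share of all genes with such an r was not counted, so nothing is read from that count. The list mean was 7.83 to 8.10 in eGFP, 7.88 to 8.18 in IFNbeta, 7.71 to 8.06 in p19Arf and 7.86 to 8.42 in the combination, and its r with Hdc was 0.633. Basophil markers, 7 genes that include Mcpt8, ran from 7.73 to 7.83 in eGFP, 7.65 to 7.80 in IFNbeta, 7.65 to 7.71 in p19Arf and 7.58 to 7.68 in the combination. Their list mean had r = -0.579 against Hdc and 0.717 against Fcer1a. For deviations from the group means these were -0.254 and 0.433, and the neutrophil list had 0.542 with Hdc. The part of either cell type in these results was not tested.

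The genes most like Cpa3 were broadly expressed ones. Pmp22, a membrane protein of myelin that fibroblasts also make, had r = 0.898 (rho = 0.893, 0.864 without the 2 arrays farthest from the median of Pmp22, and 0.817 for deviations from the group means). Cavin3, a coat protein of caveolae, was at 0.892, the glucosyltransferase gene B3glct at 0.874, the nuclear receptor coactivator Ncoa1 at 0.866 and the netrin receptor family member Neo1 at 0.862. Pmp22 averaged 10.59 ± 0.34 with eGFP, 10.31 ± 0.28 with IFNbeta, 9.96 ± 0.44 with p19Arf and 9.93 ± 0.22 with both vectors (SD, n = 5 each). Cpa3 also followed the array spread, with r = 0.692, or 0.559 for deviations from the group means, whereas Mcpt4 did so less, at 0.327 and -0.0332.

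**Figure D4:**
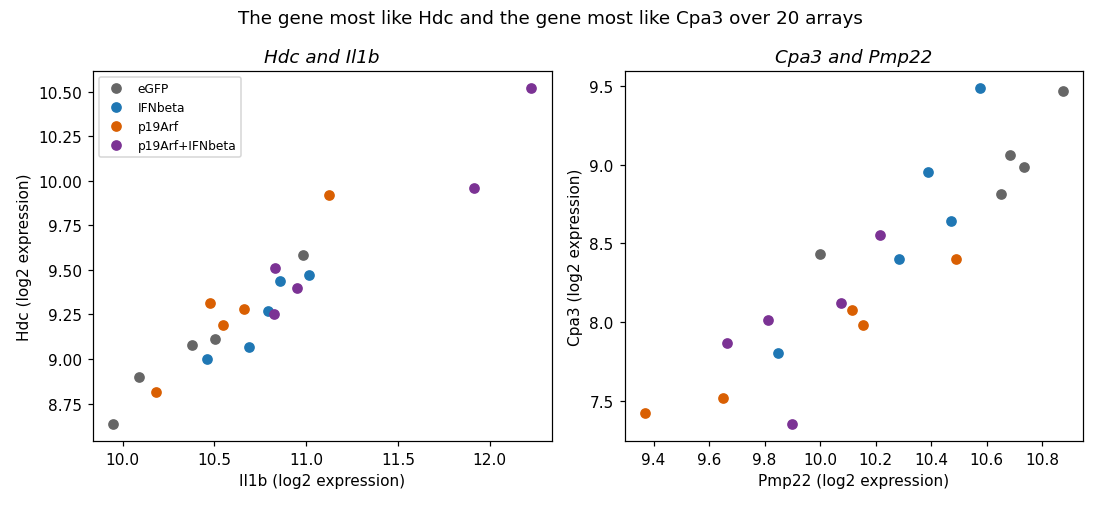
Left, Hdc against Il1b, and right, Cpa3 against Pmp22, in log2 expression on the 20 arrays, coloured by vector group. Hdc and Il1b lie along a line (r = 0.952) that ends in replicates 1 and 4 of the combination, and Cpa3 and Pmp22 (r = 0.898) are both low on most arrays with p19Arf.

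Markers of other cell types are given by the same p19Arf average, with no test. In that average 42.2% of all genes were lower. Of 12 macrophage markers 11 were lower with p19Arf than without it, with a median difference of -0.17, and the list mean ran from 10.21 to 10.63 in eGFP, 10.23 to 10.63 in IFNbeta, 9.95 to 10.54 in p19Arf and 9.89 to 10.63 in the combination. The 10 fibroblast markers split, with 7 higher and a median of 0.04. The collagen genes Col1a1 and Col1a2 differed by 0.93 and 0.90, and the matrix proteoglycan genes Lum and Dcn by -0.99 and -0.63, and r with Cpa3 was -0.67 and -0.65 for the collagens and 0.780 and 0.832 for Lum and Dcn, genes chosen after their values were seen. Of 8 eosinophil markers 7 higher (0.16), of 6 melanocyte markers 4 higher (0.09) and of 7 adipocyte markers 7 lower (-0.18). Of 9 skin epidermis markers 9 were lower (-0.24), of 10 endothelial markers 7 (-0.05) and of 7 basophil markers 5 (-0.07). Of 16 neutrophil markers 11 were higher (0.09). The skin epidermis result includes IFNbeta replicate 3, whose list mean was 8.88, and was not computed without it. By its median array, this list was not lower with both vectors (6.49) than with IFNbeta (6.38). For p19Arf alone the median array was 6.48, beside 6.58 for eGFP. All 10 skeletal muscle markers were higher, by a median of 0.27, with list means from 7.20 to 8.05 in eGFP, 7.31 to 9.72 in IFNbeta, 7.23 to 8.95 in p19Arf and 7.37 to 9.25 in the combination. Cpa3 had r = 0.696 with the mean of the endothelial markers (0.608 for deviations from the group means) and 0.598 with that of the macrophage markers (0.558), and Mcpt4 had 0.437 and 0.352. Their part in the mast cell values was not tested.

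Beyond the 8 genes, 77 of 87 other genes of mast cell granules, signalling and mediators were measured, many of which other leukocytes also use. In the combination against IFNbeta 0 of the 77 passed in limma after adjustment, and at an unadjusted p under 0.05 there were 11 higher and 9 lower, 14.3% and 11.7%, where 25.8% of all genes were, 11.8% higher and 14% lower. After adjustment 0% of all genes passed. With p19Arf averaged over both backgrounds 7 were higher and 18 lower (9.09% and 23.4%), where 32.8% of all genes were past that p, 14.8% higher and 18% lower, and 0 passed after adjustment. The lists were chosen with earlier results of these data known, so these counts are a description and nothing is read from them.

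The lists are described by the p19Arf average, with the extreme members of each and no test. The share of all genes that were lower in it was 42.2%. Among 8 other granule proteases 2 were lower in mean, with Gzmb, the granzyme of cytotoxic lymphocytes, at -0.41 and the mucosal mast cell chymase Mcpt2 at 0.14. Of 8 genes of granule storage and amines 4 were lower, from the granule membrane protein Cd63 at -0.24 to the serotonin-making enzyme gene Tph1 at 0.10. Of 6 genes of histamine breakdown and reception 2 were lower, with the methyltransferase Hnmt at -0.09 and the histamine receptor Hrh4 at 0.19. The medians of these lists were 0.06, -0.05 and 0.11, beside 0.04 for all genes.

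Of 13 genes of IgE receptor signalling 7 were lower with p19Arf (median -0.004). Fcer1g, the gamma chain that the IgE receptor shares with other Fc receptors, was lowest at -0.27, and the adaptor gene Lat2 highest at 0.37. Of 12 genes of the Kit pathway and mast cell transcription factors 10 were lower (median -0.11), with the myeloid factor Spi1 at -0.29 and Gata1 at 0.13. Of 7 enzymes of lipid mediators 6 were lower (median -0.19), with Lta4h, which makes leukotriene B4, at -0.63 and Ltc4s at 0.14. Of 11 surface receptors 6 were lower (median -0.06), with the chemokine receptor Ccr1 at -0.46 and the integrin gene Itga2b at 0.16. Of 12 cytokine genes 3 were lower (median 0.10), with Ccl2 at -0.22 and Ccl3, a chemokine made by many myeloid cells, at 0.24.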

How the data were processed

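Tumor RNA was biotin-labelled for 1-colour Affymetrix arrays, as the labels' protocols say. The deposited table held 35556 probe sets by 20 arrays of log2 values, 1 per probe set and array, as the authors deposited them. The log base is not stated and was read from the range of 2.33 to 14.7. The submitters' processing notes name Affymetrix Expression Console and GCOS. The sources used here do not give the summarisation, background correction, normalization or genome build. No detection call was used. Array medians ran from 7.49 to 7.61, and no normalization was added. The number of arrays limits the precision.

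Gene names came from the platform annotation, updated by gene identifier to GRCm38.p6: 21789 had 1 symbol, 1621 several and 12146 none. For each gene the single-symbol probe set with the highest mean was used. All 19938 genes and 20 arrays entered 1 fit of group means with limma 3.58.1 in R 4.3.3 (16 residual degrees of freedom, 2-sided, Benjamini-Hochberg over all genes, threshold 0.05), and the script was tested on simulated data. The comparison of the combination with IFNbeta and the interaction were planned as tests of the 8 genes. Both are given as descriptions, since the choice of the genes had these arrays in view.

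The genes and lists were chosen with earlier results of these data known. The text names the 8 genes, in each list the members with the highest and lowest p19Arf average, and the 5 genes above the median level with the highest r to Cpa3 and to Hdc, without predicted genes and olfactory receptors. Promoters came from RefSeq, and 7 of the 8 genes matched. The replicate numbers were shared by the 4 groups, but in 30 same-numbered pairs the correlation of deviations ran from -0.624 to 0.657, with 11 over 0.1, so they were not taken as pairs.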

Additional observations from a re-analysis of the deposited data

Results flagged for a closer look

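In Ms4a2, replicate 3 of the combination, at 5.04, lay apart from the other 4 arrays of its group, by a gap that was 0.803 of the group's range. It was the only such array in 32 sets of a gene and a group, where chance marks about 1 in 20.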

How the results depend on the processing

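The alternatives were quantile normalization, median centring, the array spread as a covariate, array weights, trended and robust moderation, leaving out low genes, the mean of all probe sets, only the groups compared, a replicate block, and leaving out each array in turn. Leaving out low genes removed Ms4a2 and Fcer1a, and each of the 8 genes had 1 probe set.

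Counts of genes past the threshold were 0 in each of the 7 contrasts. With array weights they were 5 in IFNbeta against eGFP, 1730 in the combination against IFNbeta, 166 in the combination against eGFP and 5197 in the p19Arf average. Median centring and leaving out low genes each gave 1 in the combination against IFNbeta. Leaving out an array gave 0 to 2351 there (2351 without IFNbeta replicate 3, 1 without p19Arf+IFNbeta replicate 2), 0 to 84 in the combination against eGFP (84 without eGFP replicate 1) and 0 to 3892 in the p19Arf average. The last gave 2943 without eGFP replicate 1, 3892 without IFNbeta replicate 3, 1241 and 3092 without replicates 1 and 2 of the combination, and 2797 and 1 without replicates 1 and 2 of p19Arf. The causes were not tested. With the replicate block 0 genes passed in each contrast, and the block changed no call of the 8 genes in the tested contrasts.

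Of 474 differences of the 8 genes under other settings, leaving out arrays aside, 10 turned sign. In IFNbeta against eGFP, Fcer1a was 0.019 with quantile normalization and 0.0014 with array weights, and Kit 0.0095 with array weights. In the combination against p19Arf, Cpa3 was -0.10 with array weights. In the combination against IFNbeta, Cma1 was -0.053 with quantile normalization and -0.030 with median centring. In p19Arf against eGFP, Tpsb2 was 0.0096 and Ms4a2 -0.036 with quantile normalization, and Ms4a2 -0.0029 with median centring. In the combination against eGFP, Ms4a2 was 0.019 with array weights. Leaving out an array moved across 0, in IFNbeta against eGFP, Mcpt4 (-0.048 to 0.117), Tpsb2 (-0.116 to 0.013), Fcer1a (-0.086 to 0.056) and Kit (-0.072 to 0.041). It did so in the combination against p19Arf for Cpa3 (-0.043 to 0.257), Mcpt4 (-0.216 to 0.033) and Cma1 (-0.047 to 0.111), in the combination against IFNbeta for Cma1 (-0.046 to 0.086), in p19Arf against eGFP for Tpsb2 (-0.065 to 0.071) and Ms4a2 (-0.020 to 0.093), and for Cma1 in the combination against eGFP (-0.105 to 0.028) and in the p19Arf average (-0.065 to 0.0058).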
